A study of Arabidopsis thaliana with 12 samples.

Results

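Homeodomain-leucine zipper (HD-Zip) proteins are plant transcription factors that join a DNA-binding homeodomain to a leucine zipper, through which they pair and bind a short palindrome. Class I members are known for responses to abscisic acid (ABA), water deficit and light, and class II members for shade avoidance and the responses to auxin and brassinosteroid. Seedlings use both classes to fit organ growth to light and water supply. The genes described here are 10 members of these classes, chosen by their AGI locus: HB6 (AT2G22430), HB7 (AT2G46680), HB12 (AT3G61890), HB13 (AT1G69780), HB40 (AT4G36740) and HB52 (AT5G53980) of class I, and HB2 (AT4G16780), HAT1 (AT4G17460), HAT2 (AT5G47370) and HAT22 (AT4G37790) of class II. They are 10 of the 23396 genes in the count table and 10 of its 47 genes of the 4 HD-Zip classes, and the haemoglobin gene HB1 is not among them. All 10 passed the filter on low counts, which left 20074 genes for testing.

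RNA was sequenced from whole Col-0 wild-type seedlings in 4 groups of 3 biological replicates: hypoxia/flg22 (HF), normoxia/flg22 (NF), hypoxia/mock (HM) and normoxia/mock (NM). The flagellin-derived peptide flg22, which starts pattern-triggered immunity, was given at 100 nM, mock was water, hypoxia was applied in anaerojars, and both treatments began together and lasted 1 h. Each sample pooled 5 seedlings of 10 days, kept in liquid medium, and no mutant entered the comparisons. Since organs were not separated, fewer cells of a type and less RNA per cell cannot be told apart.

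Every sample held between 21307650 and 21554050 counts, and TMM normalization factors ran from 0.828 to 1.23. Levels are in CPM, the counts scaled to the effective library size. A gene was called when its adjusted p-value was under 0.05 and its fold change was above 1.5 in either direction, with fold changes given below on the log2 scale (log2FC; edgeR, Benjamini-Hochberg over all genes tested). Of 8 hypoxia genes used as a check, 8 were called higher in HF than in NM and 0 in HM than in NM, although LBD41 averaged 582 CPM in HM against 18.4 CPM in NM and ADH1 averaged 106 CPM in HM against 10.8 CPM in NM. Of 5 flg22 genes, 4 were called higher in HF and also in NF, WRKY33 among them, while FRK1 overlapped between all groups. WRKY33 also averaged 291 CPM in HM, with samples from 60.8 to 647 CPM, against 44.1 CPM in NM. The summed level of 5 shoot markers was between 19340 and 30044 CPM in all samples. That of 5 root markers was 32.8 to 44.6 CPM in HF, 27.4 to 79.9 in NF, 18.3 to 34.3 in HM and 13.8 to 81.1 in NM, with replicate 1 the highest in all 4 groups. No marker was at 0. The part of these root levels in the results below was not tested.

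The 10 genes covered a wide range of levels. Per kb of exon in NM, HB6 was highest at 41.6 ± 11.8 CPM (SD, n = 3, as for the levels that follow), and HAT22 (27.9 ± 9.05), HAT2 (23.7 ± 7.13), HB12 (18.7 ± 17.5) and HAT1 (15.0 ± 2.95) came next. HB7 (6.70 ± 2.74), HB13 (5.51 ± 0.522) and HB2 (4.22 ± 2.15) formed a lower tier, above HB52 (1.75 ± 0.0946) and HB40 (0.258 ± 0.0708). Among neighbours in this order, the SD ranges of HAT1 and HB7, of HB2 and HB52 and of HB52 and HB40 did not meet, while those of every other pair of neighbours did. In HF the same measure put HB6 at 62.0 ± 7.72 and HAT1 second at 26.6 ± 7.79 CPM per kb, with HB2 at 10.05 ± 1.88 and HB12 at only 3.28 ± 0.992.

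**Figure D1:**
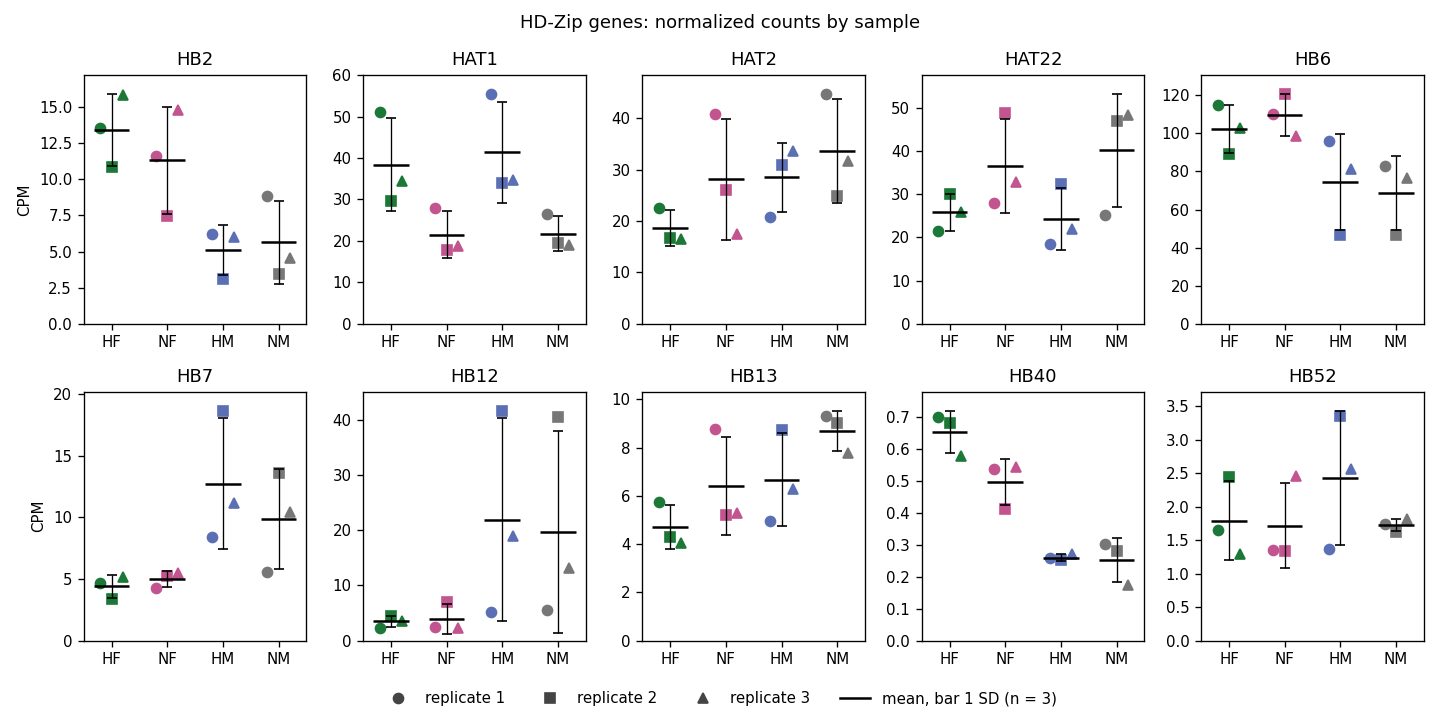
Normalized counts (CPM) of the 10 HD-Zip genes in each of the 12 samples, by group, with each axis starting at 0. Symbols give the replicate number and black lines the mean and 1 SD (n = 3); HB7 and HB12 were low and HB2 and HB40 high in both flg22 groups, and HAT1 was high in both hypoxia groups.

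HB7 and HB12 had lower means and HB2 and HB40 higher means with flg22 than with mock at either oxygen level. In CPM, HAT1 was higher in every hypoxia sample than in any normoxia sample. HAT2 and HB13 had their lowest means where hypoxia and flg22 were combined. In single comparisons of 3 samples against 3, few of these differences passed the test. In HF vs NM, 0 of the 10 genes were called by edgeR, where 10.4% of all tested genes were called. Yet 7 of the 10 had an unadjusted p under 0.05, against 22.2% of all genes. In 8 of the 10 the CPM of the groups did not overlap, 4 higher (14.8% of all genes) and 4 lower (12.4%). Before TMM scaling, HB2, HAT1 and HB6 did overlap in HF vs NM. They had 191, 523 and 1577 counts in HF replicate 2 and 235, 705 and 2200 in NM replicate 1. DESeq2 called 5 of the 10 there, HB2 and HAT1 higher and HB7, HB12 and HB13 lower, against 13.5% of all genes. In NF vs NM the count by edgeR was 0 (7.07% of all genes; 4 at an unadjusted p under 0.05, against 16.5%), and DESeq2 called 1, HB12 (9.14%). In HF vs HM edgeR called 1, HB7, against 4.38% of all genes in either direction and 0.543% in the lower one, and 4 of the 10 had an unadjusted p under 0.05, against 17.1%. In NF vs HM it called 0 (5.14%; 4 at an unadjusted p under 0.05, against 19.8%), where DESeq2 called 3 (9.03%). These comparisons share groups, so that their values are set side by side and do not count as separate evidence.

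**Figure D2:**
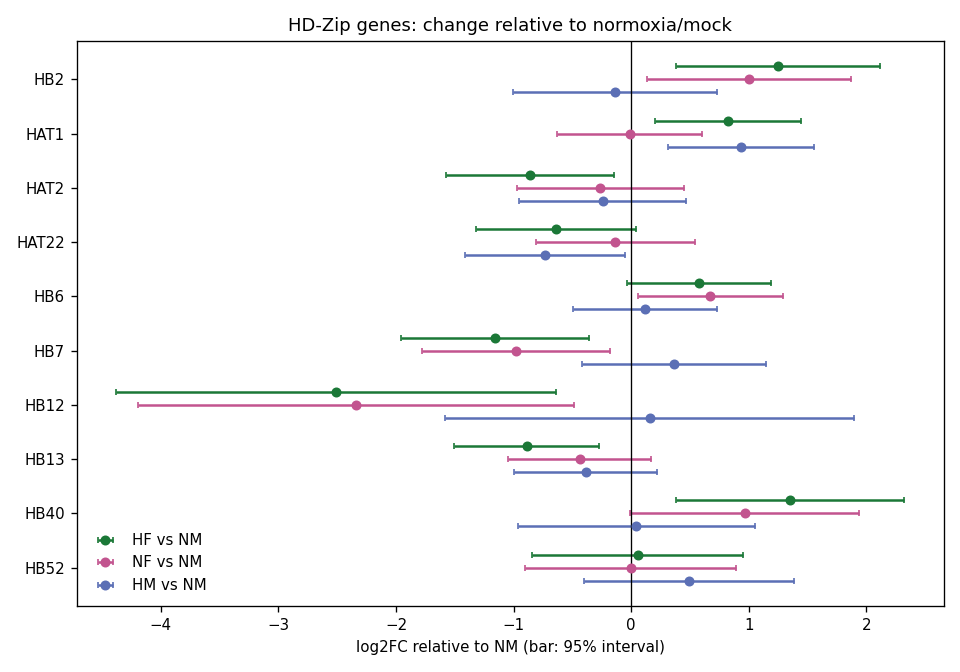
Log2FC of the 10 HD-Zip genes in HF, NF and HM relative to the same 3 NM samples, with 95% intervals from the edgeR fit. HB12 reached -2.51 in HF and -2.34 in NF with wide intervals, HAT1 was at 0.82 in HF and 0.93 in HM but -0.01 in NF, and HB52 stayed within 0.50 of 0 in all 3.

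HB7 and HB12 are close paralogs that ABA and water deficit induce, and both are known to restrain ABA responses and growth. Both were lower in flg22-treated seedlings. HB7 had 4.64, 3.40 and 5.18 CPM in HF (replicates 1, 2 and 3, as in all lists that follow), 4.28, 5.26 and 5.46 in NF, 8.41, 18.7 and 11.2 in HM, and 5.58, 13.6 and 10.4 CPM in NM. All 6 flg22 samples were thus below all 6 mock samples, with a highest value of 5.46 CPM against a lowest of 5.58 CPM, a separation in this direction that 2.08% of all tested genes showed. HB12 had 2.35, 4.42 and 3.60 CPM in HF, 2.43, 6.96 and 2.31 in NF, 5.15, 41.7 and 19.0 in HM, and 5.47, 40.5 and 13.1 CPM in NM. Its flg22 samples were low throughout, whereas its mock samples spread widely and in the same order of replicate numbers in HM as in NM, so that NF replicate 2 overlapped with replicate 1 of both mock groups.

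HB7 fell by 1.53 on the log2 scale (SE 0.37) in HF relative to HM (adjusted p = 0.0424, edgeR), the only pairwise call among the 10 genes. This call sat close to the threshold: its adjusted p ran from 0.0172 to 0.176 when single samples were left out, and it was lost without any one of the HF samples, HM replicates 2 and 3, NF replicates 2 and 3 or NM replicate 3. It was also lost when HF and HM were fitted alone (adjusted p = 0.0855). Relative to NM, the log2FC of HB7 was -1.16 in HF (SE 0.36, adjusted p = 0.0712) and -0.98 in NF (SE 0.36, adjusted p = 0.170). The log2FC of HB12 was -2.51 in HF (SE 0.85, adjusted p = 0.0941) and -2.34 in NF (SE 0.84, adjusted p = 0.158), both relative to NM, and -2.66 in HF relative to HM (SE 0.85, adjusted p = 0.119). With the replicate number as a block, HB12 was called in NF vs NM (log2FC -2.08, adjusted p = 0.00816), where 11.5% of all genes were. In the blocked edgeR fit, HB7 was not called there (adjusted p = 0.0811). It was called when the HF samples were left out of that fit (adjusted p = 0.0342, with 11.9% of all genes called). DESeq2 with the block also called it (adjusted p = 0.0328, with 13.5% of all genes called).

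Averaging the flg22 difference over both oxygen levels, a contrast chosen after the data were seen, uses all 12 samples. In it, 4 of the 10 genes were called, 2 lower (3.12% of all genes) and 2 higher (8.88%), against 12% of all genes in either direction. HB40, among the higher, had passed the filter on low counts only through flg22 samples. HB7 fell by 1.25 (SE 0.26, adjusted p = 0.00739, edgeR), with differences of -0.61, -1.89 and -1.01 in the samples numbered 1, 2 and 3. HB12 fell by 2.50 (SE 0.60, adjusted p = 0.0170), with differences of -1.12, -2.87 and -2.41. The call of HB7 held when any sample was left out (adjusted p from 0.00268 to 0.0221), and that of HB12 was lost without NF replicate 3 (adjusted p = 0.0502, log2FC between -2.86 and -1.96 over the 12 fits).

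The 250 bases before the annotated starts of HB7 and HB12 are shown because the genes moved together and because these windows share a run of letters. They are read on the minus strand of TAIR10.1 (RefSeq), at chr2:19166968-19167217 for HB7 and chr3:22915394-22915643 for HB12, and hold no part of another annotated gene. Capitals mark the longest stretch common to both.
HB7: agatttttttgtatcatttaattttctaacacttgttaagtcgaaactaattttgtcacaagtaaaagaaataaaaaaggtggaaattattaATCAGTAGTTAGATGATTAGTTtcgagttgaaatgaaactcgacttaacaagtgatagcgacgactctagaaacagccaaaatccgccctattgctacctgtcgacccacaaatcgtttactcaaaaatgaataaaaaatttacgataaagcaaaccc
HB12: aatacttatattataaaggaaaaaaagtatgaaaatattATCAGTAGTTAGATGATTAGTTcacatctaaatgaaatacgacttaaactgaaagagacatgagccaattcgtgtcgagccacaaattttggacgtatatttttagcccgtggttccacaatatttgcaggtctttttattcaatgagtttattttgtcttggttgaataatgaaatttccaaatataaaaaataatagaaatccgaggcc
The stretch is 22 bases long and begins 158 bases before the start of HB7 and 211 bases before that of HB12. In the other 44 pairs of the 10 promoters, the longest stretch shared on the same strand was 11 bases, with a median of 8 over all pairs. Of 27443 promoters of this length from protein-coding nuclear genes, 2 held the 22 bases on either strand. These 2 were the promoters of HB7 and HB12 themselves, from which the stretch was taken. Neither window held CAATNATTG, the palindrome that HD-Zip proteins of classes I and II bind, nor any of the other motifs searched.

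HB2 encodes a class II protein that is induced within minutes by light low in red relative to far-red and drives shade-avoidance growth. It had 13.5, 10.8 and 15.8 CPM in HF, 11.6, 7.48 and 14.8 in NF, 6.22, 3.11 and 6.03 in HM, and 8.87, 3.44 and 4.57 CPM in NM. Each flg22 sample was above both mock samples of its own number. In CPM, NM replicate 1 was the only mock sample above any flg22 sample, NF replicate 2. The log2FC of HB2 relative to NM was 1.25 in HF (SE 0.40, adjusted p = 0.0735, edgeR) and 1.00 in NF (SE 0.39, adjusted p = 0.206), and relative to HM it was 1.39 in HF (SE 0.40, adjusted p = 0.0807) and 1.14 in NF (SE 0.40, adjusted p = 0.135). With the replicate block, the call was made in NF vs NM (log2FC 1.03, adjusted p = 0.0238) and in NF vs HM (1.16, adjusted p = 0.0165). Averaged over both oxygen levels, HB2 rose by 1.19 with flg22 (SE 0.28, adjusted p = 0.0151), with differences of 0.75, 1.43 and 1.53 for the samples numbered 1, 2 and 3. That call held without any one sample (adjusted p from 0.00404 to 0.0442). It was not made when counts were scaled to library size only (log2FC 1.02, adjusted p = 0.0518).

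HB40, which acts with related class I genes in axillary buds and is known to raise ABA synthesis there, was the lowest of the 10 genes, with 4 to 14 counts per sample. It had 0.699, 0.681 and 0.576 CPM in HF, 0.535, 0.412 and 0.541 in NF, 0.258, 0.251 and 0.270 in HM, and 0.302, 0.279 and 0.173 CPM in NM. No mock sample held more than 8 counts, so HB40 met the filter's minimum count of 10 only through flg22 samples. The separation and the call given next are therefore not independent of the filter and stand as a description. In CPM, all 6 flg22 samples were above all 6 mock samples, as for 6.32% of all tested genes. Before TMM scaling, NF replicate 2 and NM replicate 1 were tied at 8 counts. The log2FC in HF relative to NM was 1.35 (SE 0.44, adjusted p = 0.0812, edgeR), and the flg22 difference averaged over oxygen was 1.14 (SE 0.31, adjusted p = 0.0330). That call was made in only 1 of the 12 fits with a sample left out, the one without NM replicate 1 (adjusted p from 0.0469 to 0.0967), while the log2FC stayed between 1.03 and 1.21. The averaged flg22 difference was positive in every fit, but the call was also lost with scaling to library size (adjusted p = 0.0595, edgeR) and with no filter on counts (adjusted p = 0.0644, edgeR).

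Among the 10 promoters, TTGAC, the core that WRKY factors of the defence response bind, was found in 3 (HB2, HAT22 and HB52), against 44.9% of all 27443 promoters. CACGTG, a core bound by bHLH and bZIP factors, was in 1 (HB40), against 6.49%, and the shorter ACGTG of ABA-responsive elements also in 1 (HB40), against 22.9%. The shorter motif lies within the longer one. CAATNATTG was in 0 of the 10 and in 0.918% of all promoters. All motifs were searched on both strands. The windows of the genes that rose with flg22 are given with TTGAC in capitals for HB2 (plus strand, chr4:9448864-9449113) and with every match to the ABA-responsive core, on whichever strand, in capitals for HB40 (minus strand, chr4:17316442-17316691).
HB2: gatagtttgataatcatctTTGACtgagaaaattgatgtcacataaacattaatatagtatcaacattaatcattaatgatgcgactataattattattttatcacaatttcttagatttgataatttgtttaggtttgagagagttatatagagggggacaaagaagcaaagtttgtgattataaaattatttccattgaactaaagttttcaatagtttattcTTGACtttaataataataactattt
HB40: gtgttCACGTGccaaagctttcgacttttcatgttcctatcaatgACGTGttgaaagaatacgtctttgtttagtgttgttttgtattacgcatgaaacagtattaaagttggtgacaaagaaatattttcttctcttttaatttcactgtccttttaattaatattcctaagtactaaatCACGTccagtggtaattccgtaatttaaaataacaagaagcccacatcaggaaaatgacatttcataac
HB2 held TTGAC 231 and 25 bases before its start. HB40 held CACGTG 245 bases before its start and further ACGTG matches at 205 and 69 bases. These matches describe the letters only, and binding was not measured.

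**Figure D3:**
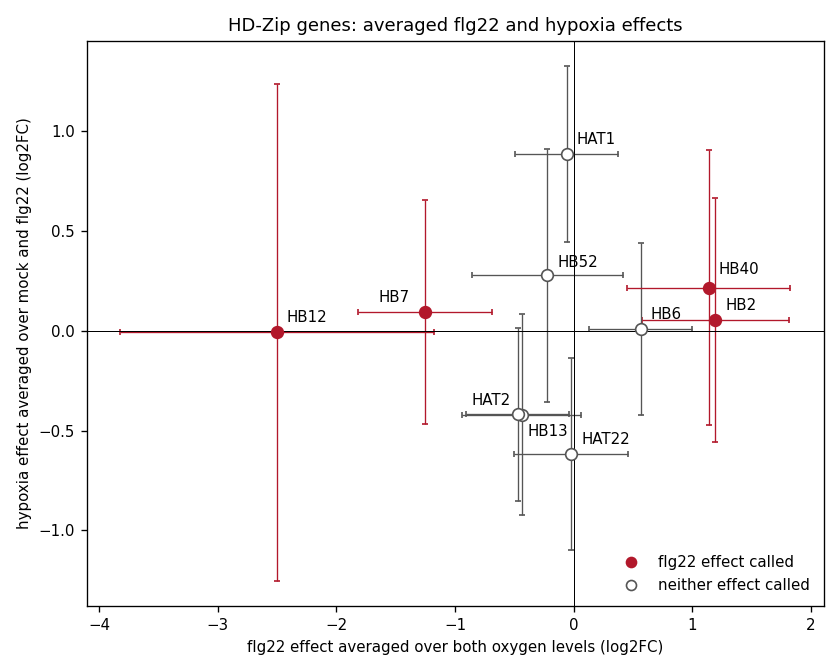
The flg22 difference averaged over both oxygen levels (horizontal) against the hypoxia difference averaged over mock and flg22 (vertical) for the 10 HD-Zip genes, as log2FC with 95% intervals. HB12, HB7, HB40 and HB2 (filled) were called for flg22 and lay between -0.01 and 0.22 on the hypoxia axis, while HAT1 lay at 0.88 on the hypoxia axis and -0.06 on the flg22 axis.

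HB6, the gene of this set with the highest level, encodes a class I protein that binds the ABA co-receptor phosphatase ABI1 and restrains ABA responses. It had 115, 89.4 and 103 CPM in HF, 110, 121 and 98.4 in NF, 95.8, 46.5 and 81.2 in HM, and 83.0, 46.6 and 76.6 CPM in NM. In CPM, the samples of HF and of NF were all above those of NM (12.3% of all genes in NF vs NM). Replicate 2 was the lowest of both mock groups. Before TMM scaling, NM replicate 1 (2200 counts of HB6) was above HF replicate 2 (1577) and NF replicate 3 (2000). Its log2FC relative to NM was 0.57 in HF (SE 0.28, adjusted p = 0.261, edgeR) and 0.67 in NF (SE 0.28, adjusted p = 0.236), and averaged over oxygen 0.57 (SE 0.20, adjusted p = 0.0857). By edgeR without the block, none of these passed the test. With the replicate block, the averaged difference was called (log2FC 0.62, adjusted p = 0.0165, edgeR; 16.7% of all genes), and DESeq2 with the block called it too (adjusted p = 0.00240; 17.3%). The averaged contrast includes HF, whose replicate 3 did not follow its number. In NF vs NM the blocked edgeR fit gave an adjusted p of 0.0562 and that of DESeq2 0.0211 (13.5% of all genes called by the second). In NF vs HM, where the log2FC was 0.56 (adjusted p = 0.299, edgeR), they gave 0.0693 and 0.0450 (19.2%).

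HAT1, a class II gene of the shade-avoidance and brassinosteroid responses, followed oxygen. It had 51.1, 29.7 and 34.5 CPM in HF, 27.9, 17.8 and 18.8 in NF, 55.5, 34.0 and 34.6 in HM, and 26.6, 19.6 and 18.9 CPM in NM. All 6 hypoxia samples, with a lowest value of 29.7 CPM, were above all 6 normoxia samples, with a highest of 27.9 CPM, although replicate 1 was the highest of each group. Such a separation in CPM was found for 0.598% of all tested genes. Before TMM scaling these samples overlapped. HAT1 had 523 and 678 counts in replicate 2 of HF and HM, and 679 and 705 in replicate 1 of NF and NM. The log2FC was 0.93 in HM relative to NM (SE 0.28, unadjusted p = 0.00720 and adjusted p = 0.578, edgeR), 0.84 in HF relative to NF (SE 0.28, adjusted p = 0.776) and 0.82 in HF relative to NM (SE 0.28, adjusted p = 0.0976). In NF relative to NM it was -0.01, with a 95% interval of -0.63 to 0.61.

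In HM vs NM, the comparison of hypoxia alone, edgeR called 0 of the 10 genes and 0% of all tested genes, and 2 of the 10 (HAT1 and HAT22) had an unadjusted p under 0.05, against 5.93% of all genes. DESeq2 also called 0 of the 10 (0.841% of all genes). With the replicate number as a block, HAT1 was called (log2FC 0.91, adjusted p = 0.0360), as 1 of 13 genes or 0.0648% of those tested. When the HF samples were left out of that blocked fit, its adjusted p was 0.0697 and 0.0151% of genes were called. In NF vs HM, where HAT1 had a log2FC of -0.94 (SE 0.28, adjusted p = 0.0861), the block gave an adjusted p of 0.00202. It gave 5 of the 10 genes as called in NF vs HM, namely HB2, HAT1, HAT22, HB7 and HB12, against 15.3% of all genes. The hypoxia difference averaged over mock and flg22, also chosen after the data were seen, was 0.88 for HAT1 (SE 0.20, adjusted p = 0.114), and its values in the samples numbered 1, 2 and 3 were 0.96, 0.77 and 0.87. In this contrast 0 of the 10 genes were called (0.334% of all genes; 2 of the 10 at an unadjusted p under 0.05, against 10.3%), and by DESeq2 1, HAT1 (2.23%).

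**Figure D4:**
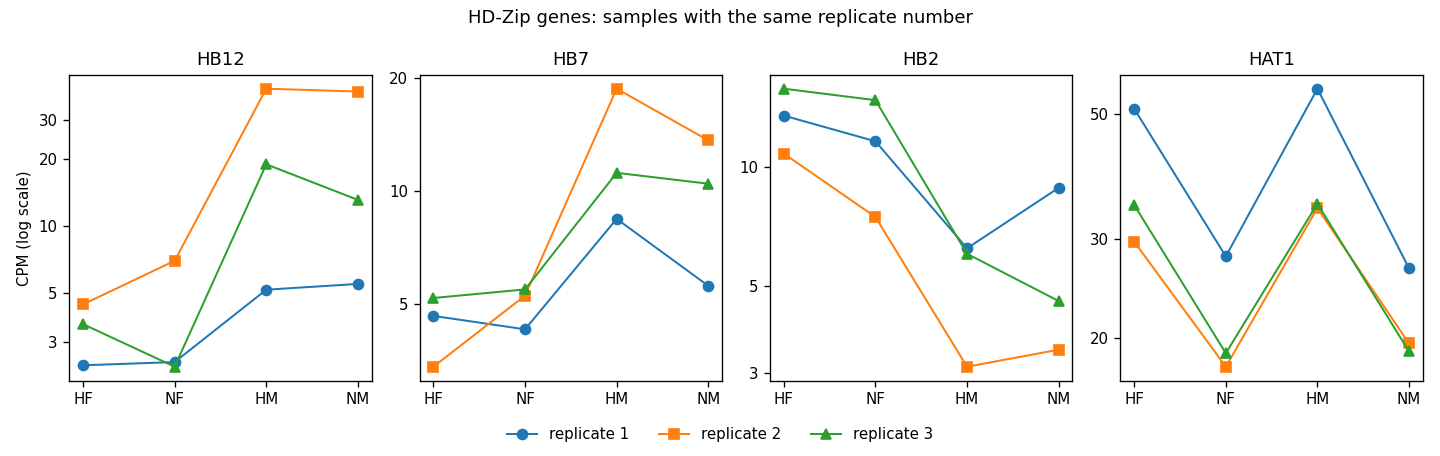
CPM on a log axis of HB12, HB7, HB2 and HAT1, with lines joining samples that share a replicate number across HF, NF, HM and NM. The 3 HAT1 lines run in parallel, high in HF and HM, and replicate 2 of HB12 lies at 41.7 CPM in HM and 40.5 CPM in NM, above the other replicates of both groups.

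Mean levels of several genes differed between replicate numbers, though not in the same order in every group. HB7 in replicate 2 was highest in HM (18.7 CPM) and NM (13.6 CPM) but lowest in HF (3.40 CPM). Averaged over the 4 groups, HB12 was at 3.85 CPM in replicate 1, 23.4 in replicate 2 and 9.50 in replicate 3. HB7 was at 5.73, 10.2 and 8.06 CPM, whereas HB2 was lowest in replicate 2 (10.07, 6.21 and 10.3 CPM) and HAT1 highest in replicate 1 (40.3, 25.3 and 26.7 CPM). HAT22 was lowest in replicate 1 (23.2, 39.5 and 32.2 CPM).

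HAT2, which auxin induces, and HB13, a class I gene known for leaf shape and stress tolerance, were lowest in the combined treatment. HAT2 had 22.6, 16.7 and 16.5 CPM in HF, 40.7, 26.0 and 17.5 in NF, 20.9, 31.0 and 33.6 in HM, and 44.7, 24.8 and 31.6 CPM in NM. HB13 had 5.74, 4.31 and 4.03 CPM in HF, 8.76, 5.21 and 5.27 in NF, 4.94, 8.74 and 6.30 in HM, and 9.32, 9.01 and 7.76 CPM in NM. For both, the HF samples were all below the NM samples and overlapped with those of NF and HM. The log2FC in HF relative to NM was -0.86 for HAT2 (SE 0.33, adjusted p = 0.137, edgeR) and -0.89 for HB13 (SE 0.28, adjusted p = 0.0722). Relative to NM, HAT2 was at -0.26 in NF and -0.24 in HM, and HB13 at -0.44 in NF and -0.39 in HM, all with intervals that included 0.

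HAT22, also known as ABIG1, slows growth and hastens leaf yellowing when ABA or drought calls on it. It had 21.4, 30.1 and 25.8 CPM in HF, 27.9, 48.8 and 32.9 in NF, 18.5, 32.2 and 21.9 in HM, and 25.1, 46.9 and 48.4 CPM in NM. In each replicate number the hypoxia samples were below the normoxia sample with the same flg22 treatment, while the groups overlapped. Its log2FC relative to NM was -0.64 in HF (SE 0.31, adjusted p = 0.261, edgeR) and -0.73 in HM (SE 0.31, adjusted p = 0.799), and it was -0.14 in NF. The hypoxia difference averaged over mock and flg22 was -0.62 (SE 0.22, adjusted p = 0.343). With the replicate block this difference was called (log2FC -0.60, adjusted p = 0.0368, edgeR), where 1.76% of all genes were. The averaged contrast includes HF, whose replicate 3 did not follow its number.

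HB52, a class I gene with a role where ethylene and auxin set root growth, had the log2FC nearest to 0 of the 10 genes in HF vs NM (0.05) and in NF vs NM (-0.01), though not in HM vs NM (0.49). It had 1.65, 2.44 and 1.30 CPM in HF, 1.36, 1.34 and 2.46 in NF, 1.37, 3.36 and 2.56 in HM, and 1.74, 1.63 and 1.81 CPM in NM. All groups overlapped with NM. The 95% interval of its log2FC relative to NM ran from -0.85 to 0.95 in HF, from -0.90 to 0.89 in NF and from -0.40 to 1.39 in HM.

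Whether hypoxia altered the flg22 response was tested by the interaction, the flg22 difference in hypoxia minus that in normoxia. It ranged from -0.55 for HB7 to 0.38 for HB2, and 0 of the 10 genes were called by edgeR or by DESeq2 (0% of all tested genes with either), with 0 at an unadjusted p under 0.05 against 1.13% of all genes. The intervals were wide, from -0.97 to 0.78 for HAT1 and from -2.85 to 2.20 for HB12. In HF vs NF, edgeR called 0 of the 10 (0% of all genes; 1 of the 10, HAT1, at an unadjusted p under 0.05, against 4.94%), and DESeq2 also 0 (0.522%). In CPM, HB40 was the only gene besides HAT1 whose HF samples were all above those of NF (5.08% of all genes). Its log2FC there was 0.39 (SE 0.42, adjusted p = 0.996, edgeR). Before TMM scaling both genes overlapped. NF replicate 1 held 13 counts of HB40 and 679 of HAT1, against 12 and 523 in HF replicate 2.

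The other HD-Zip genes gave few calls. Of the 38 that were not described above, 37 were in the table and 30 were tested, and 1 was called in HF vs NM, HAT3 of class II, whose product acts in leaf development and shade avoidance (10.4% of all genes were called). HAT3 averaged 3.99 ± 0.623 CPM in HF, 6.92 ± 2.31 in NF, 6.28 ± 0.281 in HM and 8.36 ± 0.683 CPM in NM (SD, n = 3 each), and fell by 1.06 in HF relative to NM (SE 0.24, adjusted p = 0.0165, edgeR). None of the 30 was called in NF vs NM or HM vs NM. By class, and with the genes described above included, HF vs NM called 0 of 15 tested class I genes, 1 of 10 of class II, 0 of 5 of class III, which pattern the shoot and vasculature, and 0 of 10 of class IV, which act in the epidermis. The median log2FC in HF vs NM was 0.01, -0.20, -0.30 and -0.29 for classes I, II, III and IV in that order, and -0.05 over all tested genes. Of the LITTLE ZIPPER genes, whose small proteins block class III factors, 2 of 4 were tested and 0 called. In the flg22 difference averaged over oxygen, 1 of the other 30 was called, against 12% of all genes (8.88% higher). This was HB18 of class II, which was named after its value was seen. It had 2.87 ± 0.668 CPM in HF, 2.89 ± 0.749 in NF, 0.978 ± 0.637 in HM and 0.937 ± 0.329 CPM in NM, and rose by 1.58 (SE 0.38, adjusted p = 0.0186).

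Genes of the pathways in which HD-Zip proteins act were read from lists of their known members. Of 13 tested ABA genes, among them the phosphatases and receptors, 0 were called in HF vs NM (10.4% of all genes), NF vs NM (7.07%) or HM vs NM (0%), and their median log2FC was -0.06 in HF vs NM and -0.05 over all tested genes. Of 11 tested shade-avoidance genes, 3 were lower in HF vs NM (2.59% of all genes) and 0 higher. HFR1, a bHLH protein that limits shade growth, averaged 1.65 ± 0.279 CPM in HF and 5.39 ± 2.103 CPM in NM, and fell by 1.70 (SE 0.43, adjusted p = 0.0291, edgeR). PAR1, another such brake, fell by 1.44 (SE 0.35, adjusted p = 0.0235), and PIF7, a bHLH factor that promotes shade growth, fell by 0.79 (SE 0.22, adjusted p = 0.0448). HB2, whose log2FC of 1.25 was not called, and PAR1 are both genes that shade induces. None of the 11 was called in NF vs NM or HM vs NM. Of 6 brassinosteroid genes 0 were called in these 3 comparisons. Of 6 gibberellin genes, GA3OX1, an enzyme that makes active gibberellin, fell by 1.36 in HF relative to NM (SE 0.38, adjusted p = 0.0432). NAC042, also called JUB1, a NAC factor that represses GA3OX1, rose by 5.81 in HF (SE 1.08, adjusted p = 0.00583) and by 6.48 in NF (SE 1.102, adjusted p = 0.00464) relative to NM, where 1 sample was at 0. In the flg22 difference averaged over oxygen (12% of all genes called), the calls in these lists were 2 of 13 ABA genes, 2 of 11 shade-avoidance genes, 0 of 6 brassinosteroid genes and 3 of 6 gibberellin genes, and those not yet named are given here after their values were seen. The ABA receptor gene RCAR3 fell by 0.95 (SE 0.23, adjusted p = 0.0174, edgeR), and ABI5, a bZIP factor of the ABA response, rose by 1.28 (SE 0.32, adjusted p = 0.0203). PAR1 fell by 1.16 and PIF7 by 0.60 (adjusted p = 0.00925 and 0.0262). GA20OX2, a gibberellin synthesis enzyme, fell by 2.13 (adjusted p = 0.0101), GA2OX2, which inactivates gibberellin, rose by 1.24 (adjusted p = 0.0382), and NAC042 rose by 5.33 (adjusted p = 0.000679).

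Pairs of the 10 genes and their nearest matches were compared over the 12 samples, which share treatments and replicate numbers. HB7 and HB12 had a Pearson r of 0.90 on log2 CPM, and 0.78 after the group means were removed. HB2 ran opposite to HB12 (r = -0.93, and -0.86 within groups) and to HB7 (-0.89 and -0.68), and HAT1 opposite to HAT22 (-0.88 and -0.81). HAT2 and HB13 had an r of 0.84 (0.73 within groups). Among 16799 tested genes with a mean of at least 50 counts, the most alike to HB7 were ATCHR12 (r = 0.99), a chromatin remodeller, and XLG1 (0.97), an extra-large G protein. HB12 was most like AT4G10910 and AT2G22270 (both 0.98), and HB2 most like NHL2 (0.97) and the UDP-glucose epimerase gene UGE2 (0.95). HB13 and HAT2 shared a match in HBI1, a growth-promoting bHLH factor (0.97 for HB13 and 0.89 for HAT2), beside AT1G69160 for HB13 (0.96) and AT5G02760 for HAT2 (0.91). HAT1 was most like FLA18 (0.95), an arabinogalactan protein, and AT2G30930 (0.91), HAT22 most like AT1G04000 (0.90) and AT5G23360 (0.88), and HB6 most like GFAT (0.98), an enzyme of hexosamine synthesis, and AT1G11330 (0.97). The matches of HB40 were AT1G14550 (0.95) and AT4G28460 (0.94), whose r within groups was only 0.30 and 0.28, and those of HB52 were AT4G00752 (0.87) and MAPKKK6 (0.86).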

How the data were processed

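The authors filtered reads with SOAPnuke and aligned them with HISAT, and the submitters' processing notes name TAIR10 and DESeq2. The counting tool, its annotation and its use of strand are not given in the sources used here. The deposited values are estimated counts per gene without normalization, and the 2.3% that were not whole were rounded. Counts were scaled by TMM and fitted with edgeR 4.0.16 (R 4.3.3; quasi-likelihood), in 1 fit of 12 samples with 4 group means, after filterByExpr at a minimum count of 10. Log2 CPM used a prior count of 2. DESeq2 1.42.0, other scalings, other filters, the replicate number as a block and the omission of each sample were alternatives. The fits were checked on simulated data. The 95% intervals come from the edgeR fit.

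Same-numbered samples deviated together in HM and NM (r of 0.264 to 0.681), NF and NM (0.314 to 0.772) and HM and NF (0.343 to 0.479). The main fit was unpaired, and pairing by number entered only through the replicate block, an alternative fit. HF replicate 3 did not follow its number (r of -0.111 to -0.009). The pairing comes from the labels' replicate numbers, and the labels do not say what a number stands for. No pair of replicates was the same library, since squared count differences averaged 30.2 to 193 times those expected from sampling noise (chi-square over degrees of freedom). With 3 samples a group, precision was limited by the spread between replicates (biological coefficient of variation 0.362, or 0.237 with the block).

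The members, the gene lists and the tests were chosen with earlier results of these data known. All 10 members are named. Other list genes are named when called in HF vs NM, up to 4 per list, beside the check genes LBD41, ADH1, FRK1 and WRKY33 and the 2 genes most alike to each member by Pearson r. Any named after its value was seen is given as such. Promoters, 250 bases before each annotated start, came from RefSeq on TAIR10.1 with Python 3.11.15. No member overlaps another gene, and none of its 50-base stretches recurs elsewhere in the genome. Symbols were matched for all 23396 identifiers. Columns of group means in the deposited table were not used.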

Additional observations from a re-analysis of the deposited data

How the results depend on the processing

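Over all alternatives, no log2FC of a called gene reversed. Of the single-gene values recomputed, 1818 kept their side of the threshold, 93 gained a call and 24 lost one. The number of the 10 genes called in HF vs NM was 0 by edgeR, 5 by DESeq2 on all samples and also on the 2 groups, 4 with scaling to library size only, 6 with the replicate block and 7 with DESeq2 and the block, where 12.9% to 18.6% of all genes were called under these alternatives. In NF vs NM these counts were 0, 1 with either DESeq2 fit, 2 with the block, 3 with the block and HF left out, and 4 with DESeq2 and the block (8.91% to 13.5% of all genes). In HM vs NM they were 0, 1 with the block (0.0648%) and 2 with DESeq2 and the block (2.02%), and in HF vs NF 0, 1 with the block and 1 with DESeq2 and the block (1.63%). HAT1 was the gene called in HF vs NF with the block (adjusted p = 0.0288; 0.105% of all genes). In HF vs HM they were 1, 0 with edgeR on the 2 groups, 3 with either DESeq2 fit, 3 with the block and 3 with DESeq2 and the block (6.78% to 13.8% in the fits that gave 3). In NF vs HM they were 0, 3 with either DESeq2 fit (9.03% and 7.87%), 1 with library size only (4.87%), 5 with the block (15.3%), also without HF (17.3%), and 6 with DESeq2 and the block (19.2%). For flg22 averaged over oxygen they were 4, 2 with library size only, both lower (14.9%), 3 with no filter on counts or with at least 10 counts in every sample, where HB40 was lost or not tested, and 5 with the block (16.7%) or DESeq2 and the block (17.3%), where HB6 was added. For hypoxia averaged they were 0, 1 by DESeq2 (2.23%), 2 with the block (1.76%) and 2 with DESeq2 and the block (5.85%). The interaction gave 0 throughout. The cause of these differences was not tested. Leaving out each sample gave 0 to 3 in HF vs NM (3 without NM replicate 1), 0 to 1 in NF vs NM, 0 to 2 in HF vs HM, 0 to 2 in NF vs HM, 2 to 4 for flg22 averaged (2 without NF replicate 3) and 0 to 0 in HM vs NM, HF vs NF, the interaction and hypoxia averaged. The share of all genes called was not computed for the fits without a sample or with other filters. Their counts therefore cannot be read as a result about the 10 genes. Same-numbered pairs that include HF did not all correlate above 0.1, so their blocked counts stand here only. The blocked values of HB6 and HAT22 in the averaged contrasts, given above, include HF and carry the same limit. Scaling to library size shifted the median of all genes to -0.32 in HF vs NM, -0.17 in NF vs NM and -0.11 in HM vs NM, and it or DESeq2's size factors turned the sign of 10 of 90 values, each within 0.12 of 0 with TMM, such as HB52 in HF vs NM (0.05 with TMM and -0.25 by library size). Fits on 2 groups were not run for the interaction and the averaged contrasts.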
